A study of Mus musculus with 4 samples.

Results

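The MS4A genes encode small membrane proteins that cross the plasma membrane several times, and many of them lie side by side in a single cluster of the genome. The 8 members that have been described in myeloid cells, Ms4a3, Ms4a4a, Ms4a4c, Ms4a6b, Ms4a6c, Ms4a6d, Ms4a7 and Ms4a8a, were taken by gene name from a count table of 54532 genes, and all 8 were present and passed the filter on low counts. Family proteins modulate immune receptors with which they associate in the membrane. The founding member CD20, the product of Ms4a1, marks B cells, and Ms4a2 encodes the beta chain of the high-affinity IgE receptor of mast cells and basophils. In macrophages, MS4A proteins have been linked to alternative activation, to signaling by the beta-glucan receptor Dectin-1 and to restraint of the inflammasome.

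The series compared alveolar macrophages (AMs), the macrophages of the lung airspace, between control and tumor-bearing mice. Both groups were female wild-type (WT) mice, of BALB/c background and 8 to 10 weeks of age according to the methods of the study. Control mice (n = 2 libraries) carried no tumor, and tumor mice (n = 2 libraries) had received 4T1 cells, a mouse mammary carcinoma line, 2 weeks earlier. Sex, genotype and tissue were the same in both groups. The study describes the AMs it isolated for imaging as CD45+ CD11b- CD11c+ SiglecF+, and its methods for sequencing say that AMs were purified without repeating a gate. The number of mice behind a library and whether mice were pooled are not given in the sources used here, so the spread between 2 libraries may be technical.

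Values are raw counts per gene, with library totals between 16167147 and 19205737. They are given as CPM, the counts scaled to a common library size, after TMM scaling, which assumes that most genes do not differ. A value of 3 counts or fewer, at most 0.190 CPM, was treated as the floor, and this floor covers counting error only. AM markers were abundant in every library, with a summed level of the 14 AM identity genes of 18001 ± 49.7 CPM in control and 12031 ± 93.2 CPM in tumor libraries (SD, n = 2). Transcripts of other cells were present in both groups, although a gate without CD11b would remove neutrophils. The epithelial genes were more abundant in control libraries (131.1 ± 1.59 CPM) than in tumor libraries (68.8 ± 1.92 CPM, SD, n = 2). The 10 neutrophil genes summed to 53.7 ± 0.0318 CPM in control and 3843 ± 26.4 CPM in tumor libraries, and the 6 hepatocyte genes to 0.122 ± 0.0966 and 617.3 ± 4.96 CPM (SD, n = 2). In such bulk samples, fewer cells of a type and less RNA per cell cannot be told apart.

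Promoter sequences are shown for Ms4a3, which was at 0 in the control libraries, for Ms4a4c and Ms4a6c, which were higher in tumor libraries, and for Ms4a8a, the most abundant member, which was lower. Each runs 5′ to 3′ from 250 bases before to 50 bases after a RefSeq transcription start, on build GRCm38.p6. RefSeq promoters were found for 7 of the 8 members and not for Ms4a6d, so no statement on motifs covers Ms4a6d. Capitals mark GAGGAA, the core of a PU.1 site, GCGTG, the core of the xenobiotic response element bound by the aryl hydrocarbon receptor (AHR), and TTGCNNAA, a motif of C/EBP factors, each searched on both strands.
Ms4a3 (chr19:11640802-11641101, minus strand): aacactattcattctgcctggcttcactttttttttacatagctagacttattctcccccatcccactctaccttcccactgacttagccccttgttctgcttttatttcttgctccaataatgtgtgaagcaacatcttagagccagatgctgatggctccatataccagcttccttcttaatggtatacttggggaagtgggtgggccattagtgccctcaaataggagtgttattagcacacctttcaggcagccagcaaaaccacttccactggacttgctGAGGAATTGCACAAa
Ms4a4c (chr19:11407411-11407710, plus strand): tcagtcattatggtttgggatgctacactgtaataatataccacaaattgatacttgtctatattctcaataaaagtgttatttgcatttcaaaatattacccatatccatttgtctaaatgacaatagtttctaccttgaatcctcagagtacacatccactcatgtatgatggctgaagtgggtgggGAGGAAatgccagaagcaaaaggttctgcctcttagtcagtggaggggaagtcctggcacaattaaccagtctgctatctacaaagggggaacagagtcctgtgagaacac
Ms4a6c (chr19:11469118-11469417, plus strand): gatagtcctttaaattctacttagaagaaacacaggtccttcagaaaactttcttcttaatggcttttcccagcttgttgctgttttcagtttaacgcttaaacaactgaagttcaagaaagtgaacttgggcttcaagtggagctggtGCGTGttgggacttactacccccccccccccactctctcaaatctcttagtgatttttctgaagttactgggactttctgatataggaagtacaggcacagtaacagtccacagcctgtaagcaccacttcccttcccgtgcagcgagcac
Ms4a8a (chr19:11081054-11081353, minus strand): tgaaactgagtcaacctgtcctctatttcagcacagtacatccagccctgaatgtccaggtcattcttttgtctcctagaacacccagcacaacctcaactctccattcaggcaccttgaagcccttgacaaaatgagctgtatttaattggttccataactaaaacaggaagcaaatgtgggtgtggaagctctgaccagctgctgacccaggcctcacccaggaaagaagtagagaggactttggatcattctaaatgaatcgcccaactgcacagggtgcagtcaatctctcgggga

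The Ms4a3 window held a GAGGAA beginning 35 bases after the start, directly followed by a TTGCNNAA at 41 bases. The Ms4a4c window held a GAGGAA beginning 61 bases upstream of the start (-61), and its paralog Ms4a4b held one at a similar place (-64). The Ms4a6c window held a GCGTG (-101), the single AHR core among the windows of the members. The Ms4a8a window held none of the 3 motifs, and neither did those of Ms4a4a and Ms4a6b. Of the 2 windows of Ms4a7, a member that was not called, 1 held a GAGGAA beginning 43 bases after its start. Of 32851 RefSeq promoter windows of the same length, 28.3% held GAGGAA, 32.4% held GCGTG and 10.8% held TTGCNNAA, so each motif is common. A match describes the letters in the window and not a bound site.

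The first question was how abundant each member was in AMs. Ms4a8a and Ms4a6d carried nearly all transcripts of the 8 members. For comparison between genes, CPM were divided by gene length in kilobases. In control libraries Ms4a8a stood at 120.3 ± 2.71 CPM per kb and Ms4a6d at 73.6 ± 2.28 CPM per kb (SD, n = 2), and the other 6 members together made up 2.88 ± 0.0805% of the per-length sum of all 8. Behind them came Ms4a6c at 1.96 ± 0.0186, Ms4a4a at 1.82 ± 0.318, Ms4a6b at 1.06 ± 0.0261, Ms4a7 at 0.489 ± 0.0692 and Ms4a4c at 0.424 ± 0.0887 CPM per kb (SD, n = 2), and Ms4a3 at 0. In this order the library values of Ms4a6c and Ms4a4a overlapped, as did those of Ms4a7 and Ms4a4c, whereas all other neighbours were separated.

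The order changed in tumor libraries. Ms4a8a at 70.6 ± 0.689 and Ms4a6d at 64.9 ± 0.279 CPM per kb were now close to each other (SD, n = 2). Ms4a3 moved from last to the third place with 4.49 ± 0.356 CPM per kb, followed by Ms4a6b at 3.98 ± 0.403, Ms4a6c at 3.19 ± 0.334, Ms4a4a at 2.69 ± 0.586, Ms4a4c at 0.947 ± 0.593 and Ms4a7 at 0.489 ± 0.0685 CPM per kb (SD, n = 2). Library values of Ms4a3 and Ms4a6b overlapped, as did those of Ms4a6c and Ms4a4a and of Ms4a4c and Ms4a7. The 6 less abundant members rose to a share of 10.4 ± 0.554% (SD, n = 2). The ratio of Ms4a8a to Ms4a6d, which does not depend on library scaling, was 1.70 and 1.57 in the control and 1.09 and 1.08 in the tumor libraries, without overlap between groups.

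The second question was which members differed between tumor-bearing and control mice. Higher were 4 members and lower were 2, with a Benjamini-Hochberg adjusted p under 0.05 in edgeR's quasi-likelihood test across all 14256 genes tested. As a background, 29.0% of all genes tested were called higher and 24.8% lower, so that 2 of 8 lower is close to the background. The 4 of 8 higher include Ms4a3, which passed the filter on low counts through the tumor libraries and could only be called higher, so nothing is read from this count. With AM identity scaling, explained with Ms4a8a, 6 members were higher and 1 was lower, but 72.5% of all genes tested were then called higher and 4.38% lower, so that 6 of 8 is close to that background. The higher members were Ms4a3, Ms4a6b, Ms4a6c and Ms4a4c. The lower members were Ms4a8a and Ms4a6d, the 2 abundant members, and the summed level of the 8 members was 356.8 ± 1.17 CPM in control and 278.2 ± 1.68 CPM in tumor libraries (SD, n = 2), but 296.1 ± 3.22 and 335.2 ± 0.391 CPM with AM identity scaling, so its direction depended on the scaling.

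**Figure D1:**
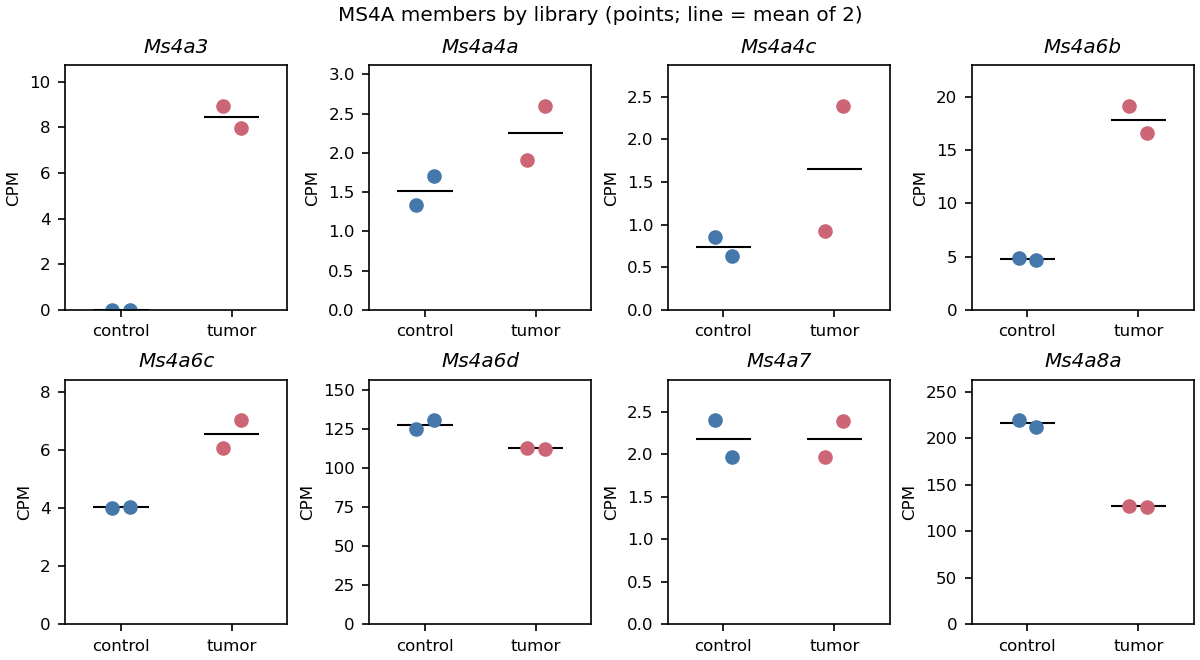
CPM of the 8 members in each library on linear axes from 0, with a point per library and a line at the mean of the 2 libraries of a group. Ms4a3 is at 0 in both control libraries and near 8.5 CPM in tumor libraries, Ms4a8a falls from about 216 to 127 CPM, and the 2 tumor values of Ms4a4c lie far apart at 0.923 and 2.39 CPM.

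Ms4a8a encodes a family member reported on alternatively activated and tumor-associated macrophages. It lies on the minus strand of chromosome 19 (11067471 to 11081102, GRCm38) and had 4116 and 3357 counts in control against 2212 and 2472 counts in tumor libraries. Its levels of 219.3 and 212.4 CPM in the controls were well above the 127.6 and 125.8 CPM in the tumor libraries. It fell by 0.77 on the log2 scale (SE 0.0363), a 1.70-fold decrease, with an edgeR adjusted p of 1.24e-16. Ms4a8a was thus the member with the largest decrease.

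Ms4a8a fell in libraries in which AM markers fell as well. All 14 AM identity genes were called lower, against 24.8% of all genes tested. When library sizes were scaled on the AM identity genes, which shifted the median over all genes tested from 0.02 to 0.56 (log2), Ms4a8a still fell by 0.23, with an edgeR adjusted p of 8.88e-07. Under this scaling 7 of the 14 AM identity genes were themselves called higher and 5 lower. Under TMM scaling their log2 fold changes ran from -0.16 for Siglecf to -2.13 for Fabp4, a range that holds Ms4a8a at -0.77. The part of the AM marker decrease in the change of Ms4a8a was not tested further.

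Ms4a6d, whose product has been described with VSIG4 as a brake on the NLRP3 inflammasome in macrophages, changed little. It lies on the minus strand of chromosome 19 (11586604 to 11604849) and had 2345 and 2063 counts in control and 1957 and 2204 in tumor libraries. The levels of 124.9 and 130.5 CPM in the controls exceeded the 112.9 and 112.2 CPM of the tumor libraries. This difference of -0.18 ± 0.0419 (SE) in log2, a 1.13-fold decrease, had an edgeR adjusted p of 0.000551. The direction rested on the scaling, since with AM identity scaling Ms4a6d was higher by 0.36, with an edgeR adjusted p of 6.55e-10.

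Ms4a6b and Ms4a6c, which lie close to each other on the plus strand, were both higher in tumor libraries. Ms4a6b (11516512 to 11531256), which is best known from T cells and is also expressed in myeloid cells, had 91 and 74 counts in control and 332 and 326 in tumor libraries. Its level was 4.77 ± 0.117 CPM in control and 17.9 ± 1.81 CPM in tumor libraries (SD, n = 2). This 3.74-fold rise, 1.90 ± 0.145 (SE) in log2, had an edgeR adjusted p of 5.71e-12. Both tumor libraries lay well above both controls. Ms4a6c (11469366 to 11482192) had 75 and 64 counts in control and 105 and 138 in tumor libraries. Its level was 4.02 ± 0.0381 CPM in control and 6.54 ± 0.685 CPM in tumor libraries (SD, n = 2), and the rise of 0.70 ± 0.190 (SE) in log2 had an edgeR adjusted p of 0.00255. Per length, Ms4a6b was below Ms4a6c in control libraries, with a ratio of 0.542 ± 0.0184, and above it in tumor libraries, with 1.26 ± 0.258 (SD, n = 2).

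Reads of near paralogs can be split by counting, so the overlap of their transcripts was measured in 50-base windows of GENCODE M21 transcripts. For Ms4a6c 10.5% of the windows occurred in another gene on the same strand, against 3.57% for Ms4a6b, 2.54% for Ms4a6d and 8.19% for Ms4a4c. Ms4a3, Ms4a4a and Ms4a8a shared none. Ms4a6c in addition overlaps BE692007 on the opposite strand, and with both strands counted 51.4% of its windows were shared, so its counts are uncertain because strandedness is not stated. BE692007 had 12 and 9 counts in control and 13 and 19 in tumor libraries and was not called (edgeR adjusted p = 0.405). Summed over Ms4a6b and Ms4a6c, a pair chosen after the values were seen, the counts were 166 and 138 in control and 437 and 464 in tumor libraries, higher by 1.47 ± 0.114 (SE) in log2 (edgeR adjusted p = 8.08e-12).

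Summed over all 3 Ms4a6 genes, control and tumor libraries stood at 136.5 ± 3.88 and 136.9 ± 1.60 CPM (SD, n = 2), and the log2 fold change of 0.01 ± 0.0396 (SE) was not called (edgeR adjusted p = 0.929). With AM identity scaling the sum was higher by 0.54 (edgeR adjusted p = 2.61e-16). The sum is dominated by Ms4a6d. Under TMM scaling, a fall of Ms4a6d by 15.2 CPM between group means thus stood beside rises of 13.1 CPM for Ms4a6b and 2.52 CPM for Ms4a6c.

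Ms4a3 showed the largest fold difference among the members, whereas Ms4a8a, Ms4a6d and Ms4a6b differed by more in CPM. The product of Ms4a3 is a regulator of the cell cycle in blood cell precursors, and the gene marks granulocyte and monocyte progenitors and basophils. It lies at the distal end of the cluster (11629496 to 11640851, minus strand) and had 0 counts in both controls, whereas the tumor libraries held 155 and 157, that is 8.94 and 7.99 CPM. The groups did not overlap, and Ms4a3 was at least 42.1-fold higher in tumor libraries, a bound taken from the lower tumor library and the higher control floor per library. The edgeR adjusted p was 1.89e-14. Ms4a3 passed the filter on low counts through the tumor libraries and could only be called higher. The lack of overlap and this p-value therefore add nothing to the counts. The bound was 61.7 with AM identity scaling.

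Genes of granulocyte precursors were, like Ms4a3, near 0 in controls. The 7 genes of this list summed to 0.606 ± 0.499 CPM in control and 211.7 ± 0.0965 CPM in tumor libraries (SD, n = 2). The 6 tested were called higher, a direction the filter fixed for the 5 at the floor in controls, which passed the filter through the tumor libraries. Mpo, which encodes myeloperoxidase, had 3 and 3 counts in control and 1684 and 1914 in tumor libraries. Elane, which encodes neutrophil elastase, had 0 and 0 against 381 and 448 counts. The 7 basophil and mast cell genes, 6 of them at the floor in controls, summed to 2.16 ± 0.188 against 561.4 ± 2.35 CPM (SD, n = 2), of which Hdc, the histidine decarboxylase gene, made up 472.9 CPM in the tumor libraries. The part of these cells in the Ms4a3 signal was not tested.

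Ms4a4c, a gene of the Ms4a4 branch that responds to interferon in myeloid cells, was higher with less certainty. It lies on the plus strand (11404770 to 11427246) and had 16 and 10 counts in control and 16 and 47 in tumor libraries. The corresponding levels were 0.852 and 0.633 CPM against 0.923 and 2.39 CPM, so that tumor replicate 1 stood just above the controls and tumor replicate 2 far above. The difference was 1.16 ± 0.448 (SE) in log2, at an edgeR adjusted p of 0.0308. The call was lost in 6 of 12 alternatives, and without tumor replicate 2 the log2 fold change was 0.29 with an edgeR adjusted p of 0.726. A similar difference between the tumor libraries was seen for Ly6c2, a marker of classical monocytes, with 2 and 7 counts in control and 14 and 41 in tumor libraries, a gene singled out after its values were seen.

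Ms4a4a, which encodes a macrophage protein that associates with Dectin-1, was not called. It had 25 and 27 counts in control and 33 and 51 in tumor libraries, and 1.52 ± 0.266 against 2.25 ± 0.490 CPM (SD, n = 2). The groups did not overlap, but the log2 fold change of 0.58 had an interval from -0.07 to 1.23 and an edgeR adjusted p of 0.124. With AM identity scaling it was 1.12 and called, with an edgeR adjusted p of 0.00159. Summing the 4 Ms4a4 genes, Ms4a4b and Ms4a4d included, gave 59 and 46 counts in control and 87 and 138 in tumor libraries, higher by 0.99 ± 0.215 (SE) in log2 (edgeR adjusted p = 0.000278).

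Ms4a7, a gene of monocyte-derived macrophages and activated microglia, showed no difference that could be detected. It had 45 and 31 counts in control and 34 and 47 in tumor libraries, 2.18 ± 0.308 and 2.18 ± 0.305 CPM (SD, n = 2). The groups overlapped. The log2 fold change of -0.0043 had an interval from -0.59 to 0.58 (edgeR adjusted p = 0.991). Changes of a size within this interval are not excluded.

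**Figure D2:**
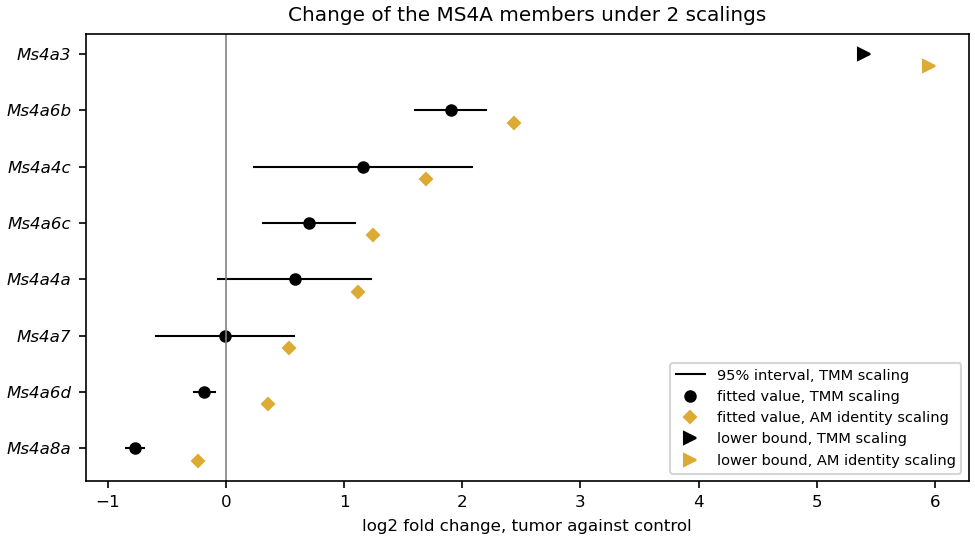
Log2 fold change of the 8 members between tumor and control libraries, with 95% intervals of the edgeR fit under TMM scaling (circles), the values under scaling on AM identity genes (diamonds) and lower bounds for Ms4a3 (triangles). AM identity scaling shifts every member upward by about the same amount, which turns Ms4a6d from -0.18 to 0.36 and leaves Ms4a8a below 0 at -0.23.

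The members were then read beside the rest of their family, from a list of 15 further names. Of these, 13 were in the table, 5 were tested and all 5 were called higher in tumor libraries, against 29.0% of all genes tested. Of the 5, Ms4a2 could only be called higher, since it passed the filter through the tumor libraries. They were also called higher with AM identity scaling, under which 72.5% of all genes were. Ms4a2 was at 0 counts in both controls and reached 85 and 87 counts with tumor, a level at least 23.3-fold higher. Its neighbour Ms4a3 showed the same pattern of absence in controls. Ms4a1 had 21 and 20 counts against 50 and 60, a log2 fold change of 1.32 ± 0.300 (SE), and the B cell list, from which it was left out, had 4 of 6 genes higher. Ms4a4b, a gene of T cells, had 18 and 9 counts against 38 and 39 and a log2 fold change of 1.42 ± 0.383 (SE). In the T and NK cell list, with 4 of 8 genes at the floor in controls, 4 of 6 tested genes were higher.

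Tmem176a and Tmem176b, which encode related membrane proteins of dendritic cells and macrophages and lie outside the cluster, overlap on opposite strands. Tmem176a rose from 3.10 ± 0.540 to 9.29 ± 0.901 CPM and Tmem176b from 4.35 ± 0.699 to 11.3 ± 0.771 CPM (SD, n = 2), with log2 fold changes of 1.60 and 1.37. Ms4a5, Ms4a10, Ms4a12, Ms4a13 and Ms4a18 had 0 counts in all 4 libraries, and Ms4a4d, Ms4a14 and Ms4a15 had at most 6.

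The cluster spans 678.6 kb of chromosome 19 from 10962293 to 11640851 and holds 19 genes with an Ms4a name in the table and 17 others, among them 1700025F22Rik, whose 5′ end lies within the RefSeq promoter window of Ms4a19. Of the genes named Ms4a, 11 were tested. The lower members did not lie together. Ms4a8a lies toward the end with the smaller coordinates, and Ms4a6d sits between Ms4a6b on one side and Ms4a2 and Ms4a3 on the other, which were all higher. Of the 17 other genes 4 were tested and 1 was called. This was AW112010, a long noncoding RNA gene next to Ms4a8a, which stood at 39.2 ± 0.848 CPM in control and 28.0 ± 2.04 CPM in tumor libraries (SD, n = 2), a difference of -0.49 ± 0.0803 (SE) in log2 (edgeR adjusted p = 9.04e-06). Under AM identity scaling its value was 0.05 and it was not called.

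**Figure D3:**
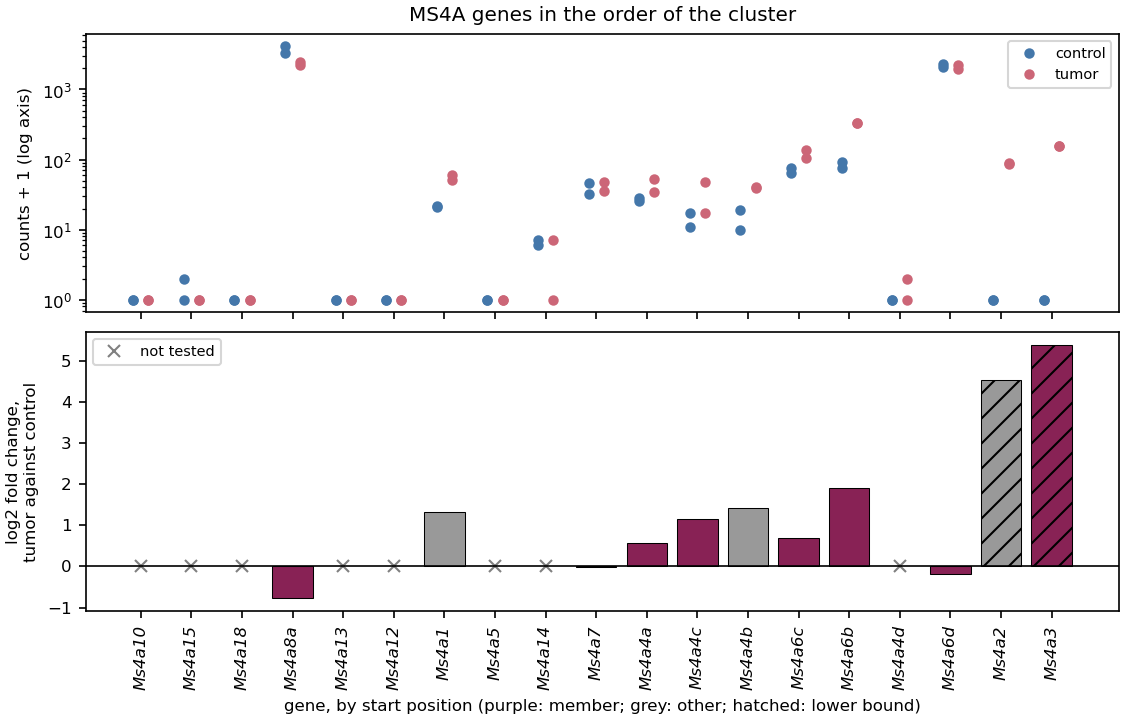
The 19 genes named Ms4a in the order of the cluster, with counts + 1 of each library on a log axis above and the log2 fold change of tested genes below. Ms4a8a and Ms4a6d stand far above all other genes, and the hatched lower bounds of Ms4a2 and Ms4a3 stand at the distal end.

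Finally, 10 genes were examined whose products act with MS4A proteins or in the receptor pathways they touch, chosen from general knowledge. Of 9 tested, 4 were called higher and 3 lower, against 29.0% higher and 24.8% lower over all genes tested. The counts were 3 and 3 with DESeq2 size factors and 6 and 2 with AM identity scaling, under which 72.5% and 4.38% of all genes were called. Clec7a, which encodes Dectin-1, stood at 1679 ± 3.14 CPM in control and 1132 ± 18.9 CPM in tumor libraries (SD, n = 2), lower by -0.57 ± 0.0190 (SE) in log2. Under AM identity scaling this decrease was -0.03 and not called. Its signaling kinase gene Syk and adaptor gene Card9 were higher by 0.07 and 0.11 in log2, or by 0.61 and 0.65 with AM identity scaling, whereas with DESeq2 size factors Card9 was not called (edgeR adjusted p = 0.0562).

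Nlrp3, which encodes the inflammasome sensor, fell by 0.87, from 1374 ± 11.8 to 753.4 ± 0.818 CPM (SD, n = 2), and it also fell, by 0.33, under AM identity scaling. Vsig4 was close to the floor, with 5 and 2 counts in control and 1 and 2 in tumor libraries, and was not tested. Trem2, a lipid receptor of macrophages, and Tyrobp, its adaptor, were not called, with log2 fold changes of -0.16 and 0.01 (edgeR adjusted p = 0.0790 and 0.715), although with AM identity scaling both were higher, by 0.38 and 0.55. Cdkn3, which encodes the phosphatase bound by MS4A3, stood at 0.843 ± 0.0613 CPM in control and 2.35 ± 0.590 CPM in tumor libraries (SD, n = 2), higher by 1.47 ± 0.362 (SE) in log2, and its substrate gene Cdk2 rose by 0.38, or by 0.92 with AM identity scaling. The adhesion receptor gene Cd44 fell by 0.89, or by 0.36 with AM identity scaling.

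Marker lists of monocytes and interstitial macrophages, which also express MS4A genes, gave calls in both directions. Over all genes tested, 29.0% were called higher and 24.8% lower. Of 10 monocyte genes 5 were called higher and 3 lower, and the summed level was 1193 ± 11.7 CPM in control and 1011 ± 17.6 CPM in tumor libraries (SD, n = 2). Of 9 tested interstitial macrophage genes 1 was higher and 6 were lower, among them C1qa, a complement gene, at -0.87 in log2. With AM identity scaling, 72.5% of all genes tested were called higher and 4.38% lower. Under it 8 monocyte genes were higher and 2 lower, and 2 interstitial macrophage genes were higher and 5 lower. The dendritic cell list had 3 of 6 genes higher and 1 lower and the epithelial list 1 of 5 tested higher and 3 lower. With AM identity scaling the dendritic cell list had 5 genes higher and 1 lower and the epithelial list 2 higher and 1 lower. The 10 neutrophil, 5 eosinophil and 6 hepatocyte genes were called higher, but 3, 3 and 6 of these lay at the floor in controls and could only be called so. The eosinophil genes summed to 0.493 ± 0.0189 CPM in control and 2211 ± 14.2 CPM in tumor libraries (SD, n = 2). The part of any of these cells in the members' values was not tested.

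**Figure D4:**
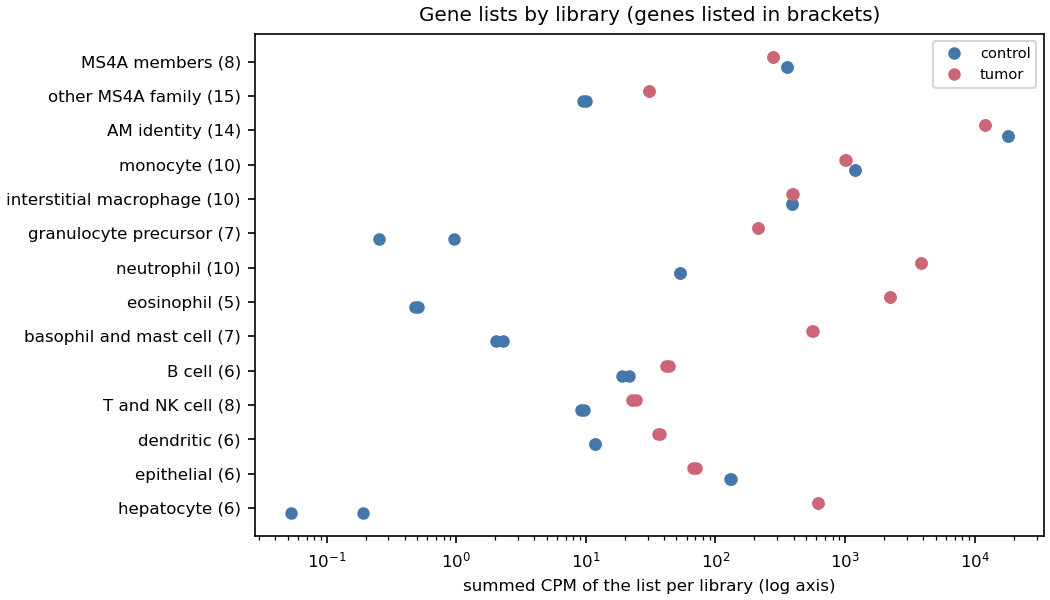
Summed CPM of the MS4A members, the other MS4A genes and 12 cell type lists in each library, on a log axis. Under the TMM scaling shown, the MS4A members and the AM identity genes shift to the left in tumor libraries (with AM identity scaling the sum of the members is higher), whereas granulocyte precursor, neutrophil, eosinophil, basophil and hepatocyte lists lie far to the right of the controls.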

How the data were processed

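RNA of purified AMs was extracted with TRIzol and sequenced as paired-end reads from NEBNext Ultra libraries, 2 per group. According to the methods of the study and the processing notes, reads were aligned with HISAT2 2.0.5 and counted per gene with featureCounts. DESeq2 is also named there, without a version or a role. The deposited values are whole-number counts, which the authors did not normalize. The deposited gene length, held as a score per gene in bases per the file headers, was used for levels per kb. FPKM were not used. Strandedness, the build and how multiply mapped reads were handled are not given in the sources used here. Of 54532 gene identifiers, 54409 were found in GENCODE M21 (GRCm38), 98.3% of them with identical coordinates, including all 8 members.

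The test was run with edgeR 4.0.16 under R 4.3.3. A filter on low values (filterByExpr, minimum count 10) came first, library sizes were scaled by TMM, and group was the single term of the quasi-likelihood test, with 2 residual degrees of freedom. Benjamini-Hochberg adjustment ran over all 14256 genes tested. With 2 libraries per group no permutation of labels can reach 0.05. The SE was derived from the F statistic of this test. The fit was tested on simulated data. Alternatives were other scalings, filters and thresholds, DESeq2 1.42.0, limma-voom (limma 3.58.1), the replicate number as a block, paralog sums and leaving out each library. The members and lists were chosen with earlier results of these data known. Named were the members, the further MS4A genes, tested pathway genes, genes of the cluster, leading marker genes and the genes nearest in pattern to 2 members. Ly6c2, Elane and the untested pathway gene Vsig4 were named outside this rule, after their values were seen. Promoters were taken from RefSeq (GRCm38.p6).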

Additional observations from a re-analysis of the deposited data

How the results depend on the processing

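Over 12 alternatives at the same threshold, Ms4a6b, Ms4a6c and Ms4a8a kept direction and call, with log2 fold changes between 1.79 and 2.44, between 0.59 and 1.24 and between -0.81 and -0.23. The number of members called higher lay between 3 and 6. The number called lower was 2, except 1 under AM identity scaling, where Ms4a6d turned to 0.36, and 0 when a log2 fold change of at least 1 was required, which Ms4a6c, Ms4a6d and Ms4a8a did not reach. Ms4a4c, the member with the fewest counts in control libraries after Ms4a3, was no longer called with the DESeq2 Wald test (1.14), with limma-voom (1.01), with the replicate block (1.06) and without 3 of the libraries. Its log2 fold change ranged from 0.29 without tumor replicate 2 to 1.66 without tumor replicate 1. The value of Ms4a7 turned to 0.0616 with total counts as library sizes, 0.53 with AM identity scaling and 0.0204 under the filter of 10 counts in each library, and ranged from -0.16 to 0.14 over the fits that left out a library, without a call in any of them. The sum of the 3 Ms4a6 genes was 0.54 and called under AM identity scaling, -0.0117 with no filter, and from -0.0349 to 0.0132 when a library was left out. Requiring at least 10 counts in every library left 3 of the 5 other family calls, since Ms4a2 and Ms4a4b then were not tested, and Ms4a3 was not tested either. Leaving out a library leaves 1 in its group, which is assumed to vary like the others. Deviations of same-numbered libraries correlated at 0.02 across genes, so the numbers were not taken as pairs, and apart from Ms4a4c the replicate block changed no call of a member.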

Other observations

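Genes with the closest pattern to a member were sought by the Euclidean distance of centred log2 CPM over the 4 libraries. Since all genes share the same contrast of 2 against 2 libraries, nearness mostly reflects a similar fold change and says nothing of shared control. For Ms4a8a the 3 nearest genes were Peli1, which encodes a ubiquitin ligase of Toll-like receptor signaling, Kif13a, which encodes a kinesin motor, and Zfp608, which encodes a zinc finger protein, at distances of 0.0159, 0.0188 and 0.0192. Peli1 went from 188.7 ± 2.26 to 110.5 ± 0.839 CPM (SD, n = 2), a difference of -0.77 ± 0.0378 (SE) in log2. For Ms4a6b they were Lipe, which encodes hormone-sensitive lipase, Ptgs2, which encodes cyclooxygenase-2, and Trp53inp1, at distances of 0.0962, 0.106 and 0.114. Ptgs2 rose from 33.8 ± 0.173 to 120.3 ± 5.22 CPM (SD, n = 2), a difference of 1.83 ± 0.0562 (SE) in log2.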
